A study of Drosophila melanogaster with 30 samples.

Results

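The ecdysone receptor EcR, its partner usp and 8 genes grouped here as early response genes of the steroid hormone ecdysone were followed across the brains of male fruit flies. The members were the rows of the table of estimated counts whose gene name was EcR, usp, Eip74EF, Eip75B, Eip78C, Eip93F, br, ftz-f1, Hr39 or E23, and all 10 names were found among 17895 genes. The selection rule names genes and uses no measured value. Each library was made from polyadenylated RNA of a pool of 30 dissected male brains, and each of 10 groups had 3 libraries, 30 in all. The labels call the pools biological replicates and do not give the flies' age or how long they were kept grouped or alone.

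Males of 5 genotypes were kept either in groups (GH) or singly (SH). The wild type was Canton-S (CS). Or47b males were labelled w+/Y; Or47b2/3;+/+ and Or67d males w+/Y; +/+; Or67dGAL4/GAL4, the first with a pair of different alleles and the second with a GAL4 insertion on both copies. Both genes encode odorant receptors for fly pheromones. Males mutant for fru were labelled w+/Y; +/+; fruLexA/4-40 and carried a LexA insertion over another allele. Males mutant for dsx were labelled w-/Y; +/+; dsxf00683-d07058/f01649-d09625 and so also carried w-, where the labels of the other mutants give w+ for the white gene. The products of fru and dsx are transcription factors that set sexual traits. No label states that a mutant stock was crossed into the CS background, so a mutation and the rest of its stock's genome cannot be told apart.

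20-hydroxyecdysone, the active form of the hormone, binds a nuclear receptor made of EcR and the RXR relative usp. In larvae and pupae the bound receptor switches on a small set of early genes, most of which encode transcription factors that then regulate later genes of moulting and metamorphosis. In the adult fly the same receptor is known for roles in memory, sleep and male courtship, and EcR acts in fru-expressing neurons of the male brain.

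Library totals ran from 37612941 to 120862312 estimated counts, with a median of 48.3 M. The lowest count of any member in any library was 557, for E23, so no member came near a floor of 3 counts, and all 10 passed the filter on low counts that left 11269 genes to be tested. A deposited table placed 6 libraries in a dissection class called AC, and the other 24 in notAC. The AC libraries were replicate 3 of CS GH, of both Or47b and of both fru groups, and replicate 2 of CS SH. The class was a term in the fit. As a check on the labels, fru stood at 20.5 to 31.1 CPM (gene counts scaled by TMM to a common library size) in the 6 fru libraries and at 157 to 221 in the other 24. dsx stood at 8.35 to 10.2 CPM in its own mutant and at 12.8 to 26.3 elsewhere, and Or67d had 0 counts in its 6 mutant libraries against up to 28 in others. Or47b was at 0 in its mutant, but the other 24 libraries held 9 counts in all, so its label could not be checked. Summed levels of 8 neuron markers (elav, nSyb, brp, Syt1, para, Rdl, ChAT, VGlut) were 7736 to 13543 CPM, and 8 glia markers 4349 to 6718, with none at 0. Marker sums for tissues that may stay attached to a brain were 451 to 4754 CPM for fat body, 920 to 2927 for photoreceptors, 484 to 1308 for haemocytes and 11.0 to 169 for muscle.

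All members were transcribed in the adult male brain, at levels that differed widely per length of annotated exon. On the scale of CPM per kb, averaged over the 30 libraries, Eip75B stood highest at 44.8 and Eip93F followed at 43.3. Eip75B encodes a haem-binding nuclear receptor related to vertebrate Rev-erb, and Eip93F a helix-turn-helix transcription factor that sets adult fate. ftz-f1 at 25.6, usp at 21.0 and Eip78C at 17.1 came next, and then EcR at 13.0 and Hr39 at 12.0. ftz-f1 and Hr39 encode related orphan nuclear receptors, and Eip78C a nuclear receptor close to that of Eip75B. The lowest were br at 8.17, Eip74EF at 5.23 and E23 at 3.29 CPM per kb. br encodes a family of BTB zinc-finger proteins, Eip74EF an ETS-domain transcription factor, and E23 an ABC transporter. By this measure Eip75B lay above 87.8% of the genes tested and E23 above 34.6%.

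The table gives a single sum for each gene, so isoforms could not be told apart. In the Ensembl annotation of BDGP6, release 115, EcR (FBgn0000546) covers chr2R:6087873-6169087 on the minus strand with 6 transcripts from 4 start sites. Eip75B (FBgn0000568, chr3L:17950953-18064696, minus strand) has 7 transcripts from 7 start sites, Eip78C (FBgn0004865, chr3L:21226609-21266503, plus strand) has 4 from 3, and br (FBgn0283451, chrX:1575132-1664869, plus strand) has 16 from 9. Hr39 and E23 have 1 start site each. Spans ran from 3514 bases for usp (FBgn0003964, chrX:2038798-2042311, minus strand) to 113744 for Eip75B. Exons of usp overlap those of Actn on the same strand by 265 bases and of CG4313 on the opposite strand by 196 bases. Exons of ftz-f1 share 2521 bases with lncRNA:CR45939 on the same strand, those of br 189 bases with Mur2B on the opposite strand, and those of Hr39 61 bases with mir-9374. Whether the counting used strand is not given in the sources used here, so reads in those stretches may have been assigned to either gene.

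**Figure D1:**
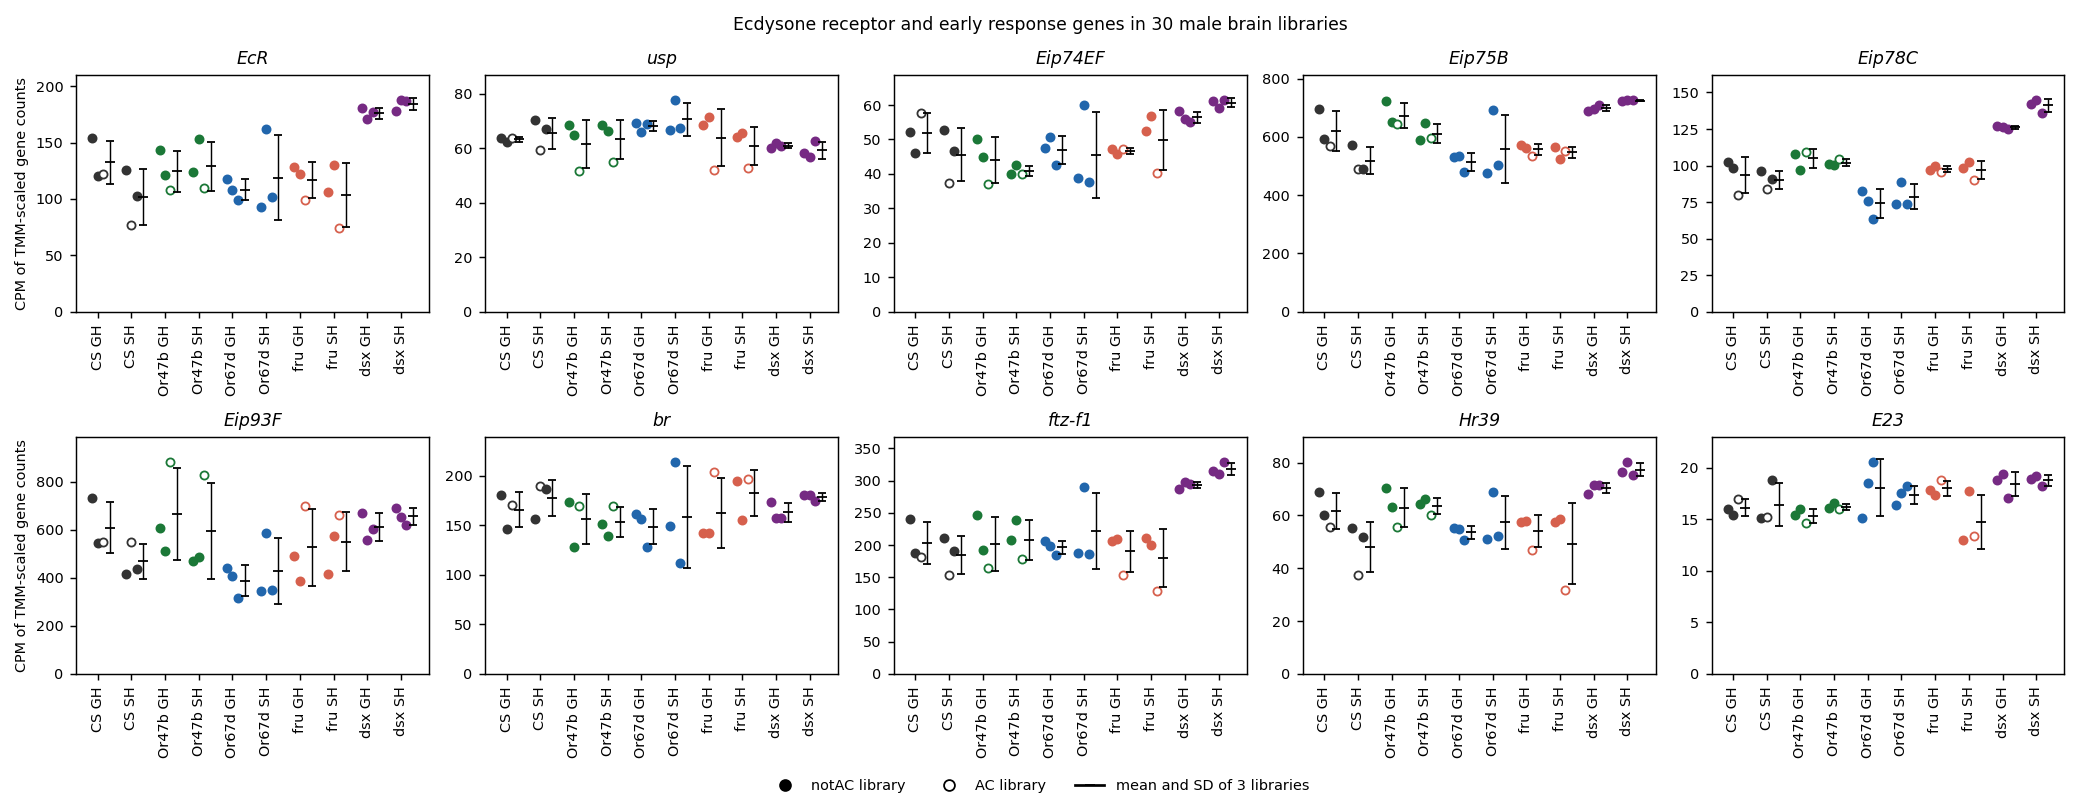
Level of each of the 10 genes in CPM of TMM-scaled gene counts (y axis, from 0) in the 10 groups (x axis); filled points are notAC libraries, open points AC libraries, and bars the mean and SD of 3 libraries. The 6 dsx libraries stand above all 24 others for EcR and Eip78C, while their br and E23 values lie within the range of the other libraries.

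The first question was whether keeping males alone changes the expression of these genes. In none of the 5 genotypes did a member pass the adjusted threshold of 0.05 (quasi-likelihood test of edgeR, Benjamini-Hochberg adjusted over all genes tested). Of all genes tested, 1.86% passed in CS, 0.213% in Or47b, 0.0266% in Or67d, 0.169% in fru, 0.0177% in dsx and 1.28% for the effect averaged over the 5 genotypes. For the averaged effect the lowest adjusted p among the members was 0.781 and the 95% intervals of all 10 lay between -0.24 and 0.24 on the log2 scale. At an unadjusted p under 0.05 the count of members was 4 in CS and 1 in fru, where 18.5% and 10.5% of all genes met that mark. It was 0 in Or47b, Or67d, dsx and the average, where 4.29%, 3.02%, 3.39% and 9.55% did, and with DESeq2 no member passed its adjusted threshold in any of these 6 comparisons.

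In CS males 7 of the 10 members had lower fitted levels in singly kept flies, without passing the adjusted threshold. Hr39 stood at 69.0, 60.1 and 55.6 CPM in the 3 group-kept CS libraries and at 55.3, 37.3 and 51.7 in the singly kept ones. The groups did not overlap, though the nearest libraries differed by little, and the log2 difference was -0.37 ± 0.12 (SE) with an adjusted p of 0.0847. Hr39 was the 1 member without overlap here, where 17.6% of all genes tested had none. EcR was at 154, 121 and 123 CPM in grouped and at 126, 76.5 and 103 in single CS males, groups that overlapped (log2 -0.41 ± 0.15, adjusted p = 0.147). Eip93F (log2 -0.42 ± 0.20, adjusted p = 0.26) and Eip75B (log2 -0.25 ± 0.10, adjusted p = 0.177) overlapped likewise, and usp, br and E23 had log2 differences of 0.03 to 0.10. The median over the members was -0.17 against 0.00 over all genes tested. The 8 neuron markers had a median log2 difference of -0.31 in the same comparison, with 0 called, and their sum was 9348 to 9690 CPM in single against 10557 to 12698 in grouped males. The 8 photoreceptor markers had a median of 0.53, with 7 positive and 0 called, and sums of 986 to 2836 CPM in single and 1117 to 1738 in grouped males. Mitochondrially encoded genes took 4.37% to 10.1% of the counts in grouped and 2.95% to 4.53% in single CS males. The housing effect in CS was called for 210 genes in the main test and for 68 once this share entered the fit. The part of these shifts in the members' values was not tested, and in bulk brain RNA fewer cells of a type and less RNA per cell cannot be told apart.

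In the other genotypes the count of members with a lower fitted level in singly kept males was 7 in fru, 5 in Or47b, 2 in Or67d and 1 in dsx, all without passing. Log2 differences ran from -0.17 (Eip93F) to 0.08 (E23) in Or47b, from -0.06 (E23) to 0.18 (ftz-f1) in Or67d, from -0.29 (E23) to 0.18 (br) in fru, and from -0.04 (usp) to 0.16 (Eip78C) in dsx. In dsx the libraries of both housings did not overlap for 6 of the 10 members, as for 21.4% of all genes tested, and none of the 6 had an adjusted p under 1. E23 in fru was at 17.9, 17.3 and 18.8 CPM in GH and 13.0, 17.7 and 13.4 in SH, so the groups overlapped through fru SH replicate 2 alone. Without that library the log2 difference was -0.45 with an adjusted p of 0.0394, against -0.29 and 0.361 with it.

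Whether a mutation changed the housing effect was asked by the difference between the mutant's effect and that of CS. No member was called in any of these 4 tests, in which 0.0177% (Or47b), 0.177% (Or67d), 0.222% (fru) and 0.00887% (dsx) of all genes were. At an unadjusted p under 0.05 the counts of members were 2, 3, 1 and 3, against 8.3%, 14.3%, 8.12% and 13.4% of all genes, and DESeq2 called none. Hr39 had the lowest adjusted p in 3 of the 4, with log2 differences between effects of 0.39 ± 0.16 for Or47b (adjusted p = 0.558), 0.47 ± 0.16 for Or67d (0.221) and 0.51 ± 0.16 for dsx (0.259). The CS libraries were shared by all of them. Fitted on the CS and dsx libraries alone, Hr39 passed for dsx with an adjusted p of 0.0395 at nearly the same log2 value of 0.51. In that fit 2.64% of all genes tested passed, against 0.00887% in the main test.

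**Figure D2:**
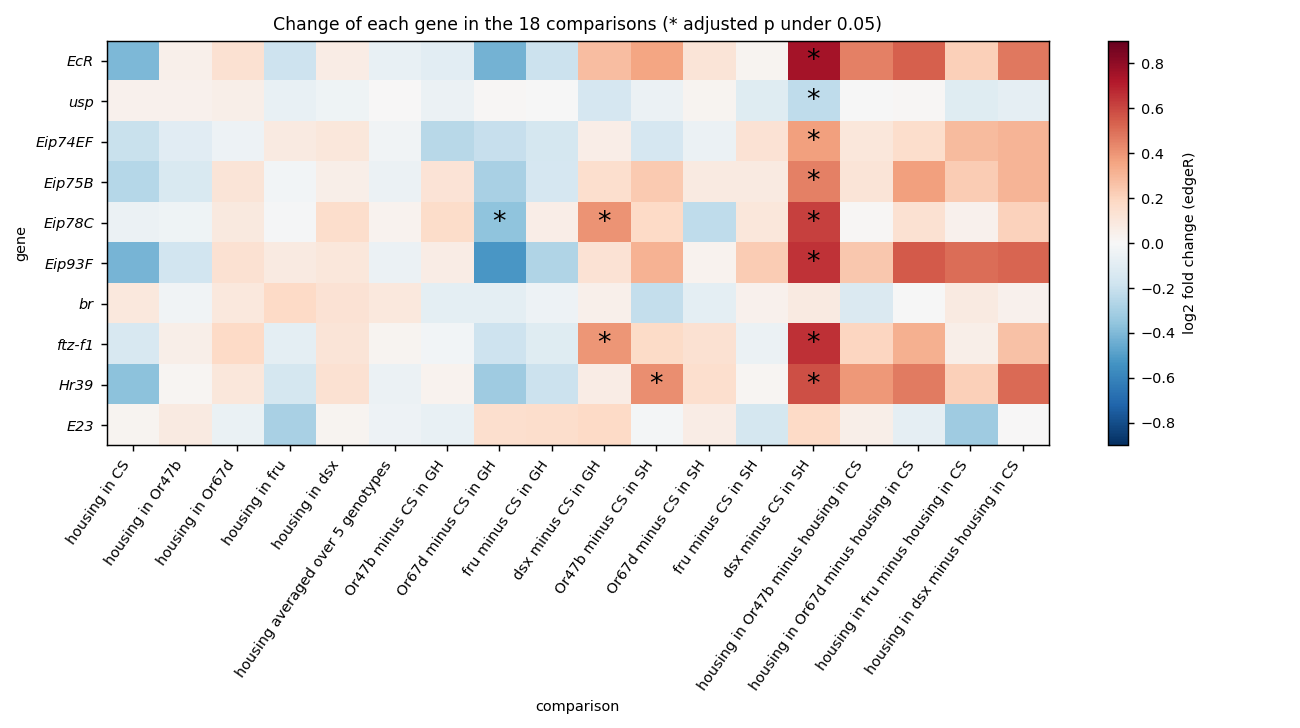
Log2 fold change (edgeR; colour scale, red higher, blue lower) of each of the 10 genes (y axis) in the 18 comparisons (x axis), with a star where the adjusted p is under 0.05. Of the 12 stars 8 stand in the comparison of singly kept dsx and CS males, and none in the housing effects or their differences.

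The second question was how the mutants differed from CS under the same housing, and the members differed most in singly kept dsx males. Of the 10 members 7 were higher than in CS SH and 1, usp, was lower, where 18.7% of all genes tested were called higher and 23.4% lower (42.1% in either direction). The median log2 difference was 0.52 over the members and -0.06 over all genes tested. The rises were 1.29- to 1.68-fold, and br and E23 did not pass. The libraries of both groups did not overlap for 7 members, as for 57.2% of all genes tested.

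EcR itself, the hormone-binding subunit, had the largest difference among the members. It stood at 126, 76.5 and 103 CPM in CS SH and at 178, 188 and 187 in dsx SH. All dsx values lay well above all CS values, with a log2 difference of 0.75 ± 0.16 (95% interval 0.42 to 1.08, adjusted p = 0.00068). Its partner usp went the other way, from 70.3, 59.2 and 66.9 CPM in CS SH to 58.1, 56.8 and 62.6 in dsx SH. These groups overlapped through CS SH replicate 2, an AC library, and the log2 difference was -0.23 ± 0.07 (adjusted p = 0.0157). Without the AC term usp was no longer called (log2 -0.15, adjusted p = 0.33), and among notAC libraries alone it was (log2 -0.22, adjusted p = 0.0188). The call was also lost without dsx SH replicate 1 or 2, with an adjusted p of up to 0.0722, and with the deposited normalized values in limma (log2 -0.18, adjusted p = 0.0514).

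Of the nuclear receptor genes among the early genes, Eip78C had the lowest adjusted p. It was at 96.2, 84.1 and 90.6 CPM in CS SH and at 142, 145 and 136 in dsx SH, groups far apart (log2 0.62 ± 0.09, adjusted p = 2.18e-05). ftz-f1, a competence factor of the prepupal response, was at 211, 153 and 190.2 CPM in CS SH and at 315, 311 and 329 in dsx SH. These groups were also apart, with a log2 difference of 0.66 ± 0.13 (adjusted p = 0.000542). Hr39 was at 55.3, 37.3 and 51.7 against 76.3, 80.2 and 75.4 CPM (log2 0.58 ± 0.12, adjusted p = 0.000576). Eip75B was at 573, 492 and 491 against 722, 727 and 726 CPM (log2 0.46 ± 0.11, adjusted p = 0.00149). Neither overlapped, and the dsx libraries were closer to each other than the CS libraries were for each of these genes.

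The early genes that encode other kinds of protein split. Eip93F was at 417, 549.6 and 437 CPM in CS SH and at 691, 655 and 621 in dsx SH, without overlap (log2 0.65 ± 0.20, adjusted p = 0.013). Eip74EF was at 52.6, 37.4 and 46.7 against 61.3, 59.2 and 61.5 CPM (log2 0.37 ± 0.14, adjusted p = 0.044). This was the call closest to the threshold, and it was lost without any 1 of 5 of the 6 libraries compared. Both groups overlapped for br, the zinc-finger gene, at 156, 189.7 and 187 CPM in CS SH and 181, 181 and 175 in dsx SH (log2 0.08 ± 0.16, 95% interval -0.26 to 0.42). They overlapped also for the transporter gene E23, at 15.2, 15.2 and 18.8 against 18.9, 19.2 and 18.2 CPM (log2 0.18 ± 0.11, 95% interval -0.05 to 0.40).

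In group-kept males the dsx difference was called for 2 members, where 21.7% of all genes tested were called. Eip78C was at 103, 98.6 and 79.6 CPM in CS GH and at 127, 126 and 125 in dsx GH, groups apart (log2 0.41 ± 0.09, adjusted p = 0.00236). ftz-f1 was at 241, 187 and 181 against 288, 298 and 295 CPM, also apart (log2 0.40 ± 0.13, adjusted p = 0.0383). The ftz-f1 call was lost when any of 4 of the 6 libraries was left out, with an adjusted p of up to 0.237. EcR did not overlap either, at 154, 121 and 123 against 181, 171 and 177 CPM, but did not pass (log2 0.28 ± 0.16, adjusted p = 0.223). The libraries of both groups did not overlap for 5 of the 10 members, usp and E23 included, as for 52.1% of all genes tested. The median over the members was 0.14 against -0.04 over all genes tested. Both dsx comparisons of EcR used different CS libraries, and the difference between the log2 values of 0.75 and 0.28 was 0.47 ± 0.22 with an adjusted p of 0.352.

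Across all libraries, the dsx mutants stood apart for EcR and Eip78C. The 6 dsx libraries held 171 to 188 CPM of EcR and the other 24 held 74.2 to 162, and for Eip78C the ranges were 125 to 145 and 63.7 to 109.6. All 6 dsx libraries lay above all others for 676 genes, 6% of those tested, and below all others for 647, 5.74%. For ftz-f1 only Or67d SH replicate 2, at 291 CPM, reached the lowest dsx library at 288, and for Eip74EF, Eip75B and Hr39 3 of the 24 other libraries exceeded the lowest dsx library. For Eip93F 8 others did, for E23 9, for br 12 and for usp 20. Within the dsx groups the members also varied little, with a median SD of 0.04 on the log2 CPM scale in both housings against 0.11 to 0.33 in the other 8 groups. Over all genes tested this SD was 0.08 in both dsx groups and 0.12 to 0.27 in the others.

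**Figure D3:**
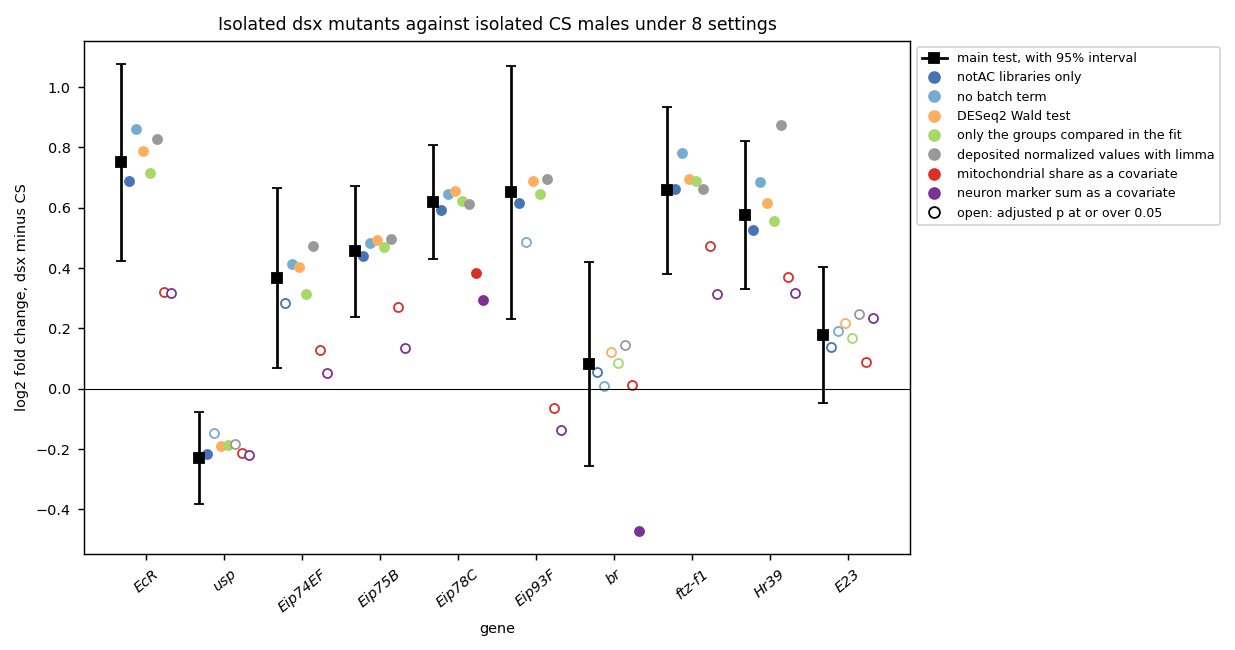
Log2 fold change, dsx SH minus CS SH (y axis), for each of the 10 genes (x axis) in the main test (squares, with 95% interval) and under 7 other settings (points; open where the adjusted p is 0.05 or more). EcR falls from 0.75 to 0.32 with either covariate, Eip78C stays called under all 8 settings, and Eip93F goes below 0 with both covariates.

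Measures of library composition moved with the same contrast. Mitochondrially encoded genes took 12.3% to 14.0% of the counts in the 6 dsx libraries and 2.49% to 11.0% in the other 24. The neuron marker sum was 13066 to 13543 CPM in dsx SH, 12265 to 13190 in dsx GH, 9348 to 9690 in CS SH and 10557 to 12698 in CS GH. In the comparison of dsx SH with CS SH 5 of the 8 neuron markers were higher and 0 lower, with a median log2 difference of 0.57. Among glia markers 1 was higher and 2 lower (median -0.13), among 7 fat body markers tested 4 were higher (median 2.14), among 7 muscle markers 4 were lower (median -1.96), and among 8 photoreceptor and 7 haemocyte markers 1 was higher and 2 lower in each (medians -0.59 and 0.26). Fat body sums were 1704 to 2088 CPM in dsx SH and 611 to 1608 in CS SH, and muscle sums 11.0 to 32.2 and 42.1 to 169. The 3 yolk protein genes Yp1, Yp2 and Yp3, known targets of dsx, were among the 4 fat body markers called.

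With the mitochondrial share as a covariate, Eip78C was the single member called in dsx SH (log2 0.38, adjusted p = 0.0245), and EcR was at 0.32 (adjusted p = 0.243). This covariate left 14.5% of all genes tested called, against 42.1% in the main test. With the neuron marker sum as a covariate, Eip78C was at 0.29 (adjusted p = 0.00928), EcR at 0.32 (adjusted p = 0.197), and br, uncalled in the main test, was lower by a log2 value of -0.47 (adjusted p = 0.027). The neuron covariate left 15.8% of all genes tested called. Since the mitochondrial shares of dsx and the other genotypes do not overlap, that covariate and the dsx genotype cannot be told apart.

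**Figure D4:**
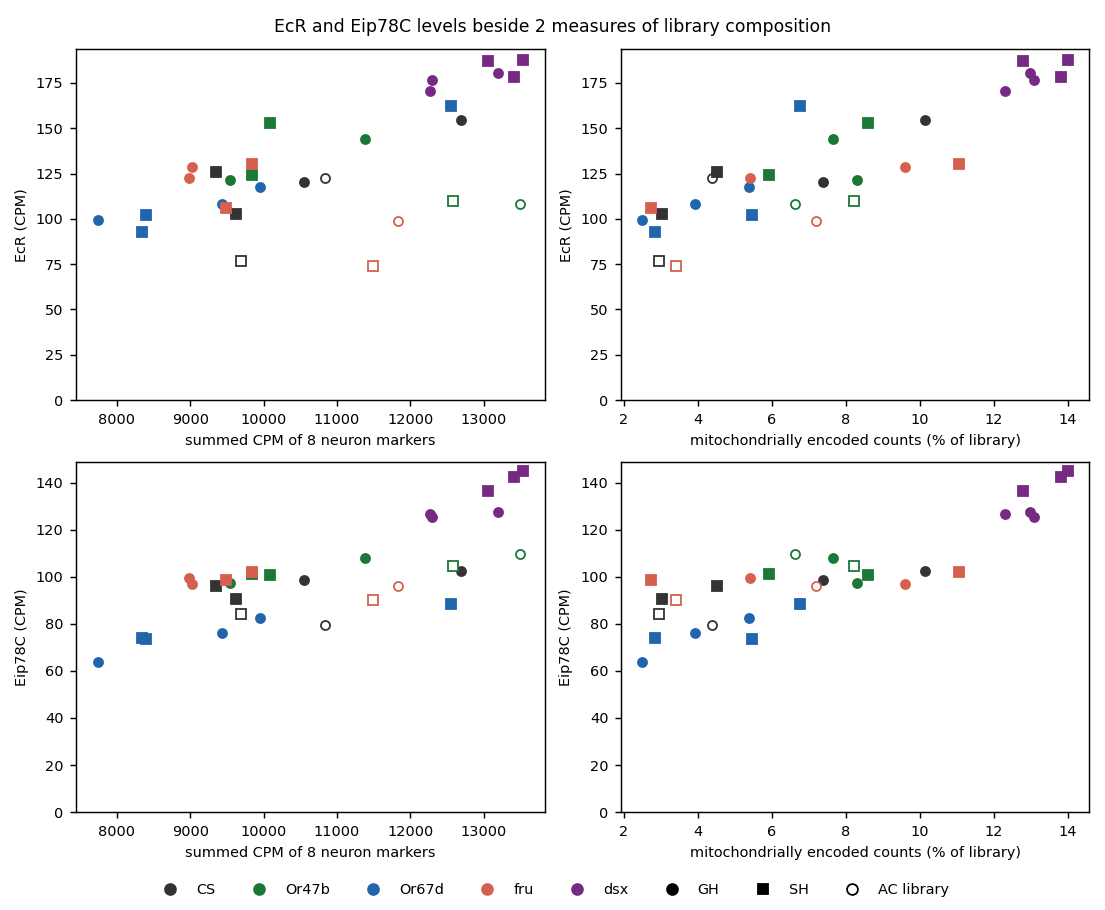
EcR (upper row) and Eip78C (lower row) in CPM (y axes, from 0) against the summed CPM of 8 neuron markers (left) and the share of mitochondrially encoded counts (right, %) in 30 libraries; colour gives the genotype, squares SH, circles GH and open symbols AC libraries. The dsx libraries hold the highest mitochondrial shares, 12.3% to 14.0%. The notAC libraries Or67d SH replicate 2 and CS GH replicate 1 reach the dsx range of neuron marker sums at 162 and 154 CPM of EcR. The AC libraries of Or47b GH and SH do so at 108 and 110 CPM, and the lowest dsx library holds 171 CPM.

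Most members also span long stretches of the genome, which the choice by name did not use. Of the 10 members 8 span at least 20 kb, and of the other 2 E23 falls just below that at 19955 bases and usp far below. In dsx SH against CS SH, 42.5% of the 1012 tested genes at or over 20 kb were called higher and 9.88% lower (median log2 0.23), against 16.4% and 24.7% of the 10247 shorter ones (median -0.09). The 7 higher members all belong to the longer class and usp to the shorter. br, also in the longer class at 89738 bases, was not called (log2 0.08). Whether length bears on these differences was not tested. In dsx GH against CS GH the longer class was called higher in 10.4% and lower in 4.64% of its genes.

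Among the other mutants, single members passed. In Or67d GH males Eip78C was lower than in CS GH, the 1 member called where 9.77% of all genes were. It was at 82.6, 75.9 and 63.7 CPM in Or67d GH and at 103, 98.6 and 79.6 in CS GH, so the highest mutant library overlapped CS GH replicate 3, an AC library (log2 -0.36 ± 0.09, adjusted p = 0.0109). The call was lost without CS GH replicate 1 or Or67d GH replicate 3, with an adjusted p of up to 0.103, and with the mitochondrial share as a covariate (log2 -0.24, adjusted p = 0.112). With the deposited normalized values in limma Eip78C was not called either (log2 -0.26, adjusted p = 0.144), and Hr39 was (log2 -0.46, adjusted p = 0.0307). EcR, Eip75B, Eip93F and Hr39 had lower means too without passing, with no overlap between groups, as for 34.1% of all genes, at log2 differences of -0.29 to -0.52 and adjusted p of 0.082 to 0.104. The libraries of usp did not overlap either, with means of 68.1 CPM in Or67d GH and 63.3 in CS GH, but its fitted log2 difference was 0.01. In the same comparison the 8 neuron markers had a median log2 difference of -0.23 with 0 positive and 0 called, and their sum was 7736 to 9950 CPM against 10557 to 12698. Of 7 haemocyte markers tested 4 were higher (median 0.74), with sums of 834 to 1153 against 506 to 744 CPM. The part of these differences in the members' values was not tested. In Or67d SH no member was called (5.64% of all genes were) with DESeq2 also at 0 and 1 member at an unadjusted p under 0.05, as for 16.4% of all genes. Eip78C was at 73.9, 88.6 and 73.7 CPM there against 96.2, 84.1 and 90.6 in CS SH, a log2 difference of -0.23 with an adjusted p of 0.194.

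Or67d SH replicate 2 stood apart from its group. It held 162 CPM of EcR, 291 of ftz-f1 and 214 of br, against 92.9 and 102, 188 and 187, and 149.8 and 112 in the other 2 libraries. It had the highest br and usp values of all 30 libraries. Its neuron marker sum was 12552 CPM, the highest of the 6 Or67d libraries. With any 1 library of these comparisons left out, no member was called for housing in Or67d or for Or67d SH against CS SH.

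In Or47b SH males Hr39 was higher than in CS SH, again 1 member where 8.43% of all genes were called. It was at 64.5, 66.0 and 60.0 CPM against 55.3, 37.3 and 51.7 (log2 0.42 ± 0.12, adjusted p = 0.0281). These groups did not overlap, as for 3 of the 10 members and 18.4% of all genes tested. The call was lost without CS SH replicate 2 or 3 or Or47b SH replicate 2 or 3, with an adjusted p of up to 0.203, and among notAC libraries alone the log2 difference was 0.28 with an adjusted p of 0.234. With the neuron marker sum as a covariate Hr39 was not called (log2 0.34, adjusted p = 0.0526) and br was, at a lower level in Or47b SH (log2 -0.39, adjusted p = 0.0292). The mitochondrial share was 5.92% to 8.58% in Or47b SH and 2.95% to 4.53% in CS SH, and with it as a covariate Hr39 was at 0.30 (adjusted p = 0.286). In Or47b GH no member passed, where 3.79% of all genes did, nor in fru GH (17% of all genes) or fru SH (13.6%). No member had an unadjusted p under 0.05 in any of these 3 comparisons, where 15.8%, 29.8% and 27.3% of all genes had, and DESeq2 called none. The largest differences there were in Eip93F for both fru comparisons, at -0.27 in GH and 0.23 in SH, and in Eip74EF for Or47b GH, at -0.25. All these comparisons share the CS libraries of their housing.

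The level of several members also differed between the dissection classes. The AC term, taken over the 3 genotypes that hold AC libraries, was called for 5 of the 10 members, where it was called for 54.7% of all genes tested. Relative to notAC libraries, EcR was lower by a log2 value of -0.40 ± 0.10 (adjusted p = 0.00141), ftz-f1 by -0.41 ± 0.08, Hr39 by -0.37 ± 0.07 and usp by -0.26 ± 0.04, and Eip93F was higher by 0.46 ± 0.12. The highest Eip93F values of all libraries, 881 and 827 CPM, were those of the AC libraries of Or47b GH and SH. No dsx or Or67d library is AC. Within the notAC libraries 7 members were called in dsx SH against CS SH, where 37.8% of all genes tested were. These 7 were all but Eip74EF of those called in the whole set, with EcR at a log2 value of 0.69 and Eip78C at 0.59.

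The order of the group means put dsx SH first and dsx GH second for EcR, Eip74EF, Eip75B, Eip78C, ftz-f1, Hr39 and E23. Between dsx GH and the next group the libraries overlapped except for EcR, Eip78C and Hr39. Below that, neighbouring groups overlapped for all 10 members, apart from Or47b SH and fru GH for Eip78C. The lowest mean was that of CS SH for EcR (102 ± 24.6 CPM, SD, n = 3) and Hr39 (48.1 ± 9.52), of Or67d GH for Eip75B, Eip78C, Eip93F and br, of fru SH for ftz-f1 and E23, and of Or47b SH for Eip74EF. usp ran the other way, with dsx SH lowest at 59.2 ± 3.08 CPM and Or67d SH highest at 70.6 ± 6.14, and all its neighbouring groups overlapped. The ratio of the highest to the lowest group mean was 1.91 for Eip78C, 1.82 for EcR, 1.77 for ftz-f1 and 1.19 for usp.

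As a description over the 30 libraries, which share genotype groups and depth, EcR, Eip75B, Eip78C, Eip93F, ftz-f1 and Hr39 moved together once the AC term was removed, while br, E23 and usp did so less or not at all. Pearson's r of log2 CPM between EcR and ftz-f1 was 0.93 (Spearman's rho 0.92), with Hr39 0.90 (0.90), with Eip75B 0.88 (0.86) with br 0.33 (0.31) and with E23 0.32 (0.34). E23 had r of 0.02 with Eip75B, 0.03 with Eip93F, 0.07 with Eip78C and -0.09 with br, and br had 0.22 with Hr39 and 0.36 with Eip75B. usp had negative r with all other members, from -0.14 with E23 to -0.67 with Eip78C. The 3 genes whose levels were most like those of EcR were beat-Ic (r = 0.98), NfI (0.97) and gish (0.97). For Eip74EF they were nkd (0.90), Hipk (0.89) and RhoGAP100F (0.88), and for Eip75B Mnn1 (0.94), Pka-C1 (0.92) and CG11030 (0.91).

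Genes that make the hormone were hardly transcribed in these brains. Of 12 genes of ecdysone synthesis and its control, 6 passed the filter. Npc1a, a sterol transporter of many tissues, stood at 128 to 252 CPM, and none of the 11 others exceeded 2.33 CPM in any library. None was called for housing or its differences between genotypes, and 1 was called in each of 4 mutant comparisons. The share of all genes tested that were called was 21.7% in dsx GH and 42.1% in dsx SH. It was 8.43% in Or47b SH and 13.6% in fru SH. The 4 synthesis genes called were shd, which encodes the enzyme of the last synthetic step, lower in dsx GH (log2 -1.62 ± 0.41, adjusted p = 0.00653), sad lower in dsx SH (-1.21 ± 0.43, adjusted p = 0.028), Cyp6t3 lower in Or47b SH and phm higher in fru SH (2.03 ± 0.66, adjusted p = 0.0437). Cyp6t3 was at 0 in 5 libraries and all 4 of these had group means under 1 CPM.

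Of the genes that carry ecdysone into cells or break it down, the importer gene Oatp74D was higher in fru GH (52.7 ± 7.39 against 37.6 ± 4.05 CPM, log2 0.48 ± 0.10, adjusted p = 0.00196). It was lower in Or67d SH (log2 -0.41 ± 0.11, adjusted p = 0.0214). Cyp18a1, whose product inactivates the hormone, was lower in dsx SH, at 3.03 ± 0.168 against 6.40 ± 3.40 CPM (log2 -0.71 ± 0.25, adjusted p = 0.0273). The ecdysone oxidase gene Eo was called in fru SH but was at 0 in 23 of the 30 libraries. The share of all genes called was 17% in fru GH, 5.64% in Or67d SH, 42.1% in dsx SH and 13.6% in fru SH.

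Of 7 EcR cofactor and membrane receptor genes, rig and DopEcR were called. rig, whose product binds nuclear receptors, was lower in Or47b males in GH (14.5 ± 1.83 against 19.5 ± 1.43 CPM, log2 -0.43 ± 0.08, adjusted p = 0.000873). It was lower in their SH males as well (log2 -0.42 ± 0.08, adjusted p = 0.001). DopEcR, a membrane receptor for dopamine and ecdysone, was lower in Or67d GH (444 ± 41.8 against 617 ± 53.0 CPM, log2 -0.59 ± 0.12, adjusted p = 0.00247). In dsx SH it was higher, at 737 ± 28.6 against 503 ± 84.9 CPM (log2 0.45 ± 0.12, adjusted p = 0.00545). The coactivator gene tai and the corepressor gene Smr were among the 5 not called in any of the 18 comparisons. The share of all genes called was 3.79% in Or47b GH, 8.43% in Or47b SH, 9.77% in Or67d GH and 42.1% in dsx SH.

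Among 11 other nuclear receptor genes tested, Hr3 was the single one higher in dsx SH, where 18.7% of all genes tested were. Hr3, an early-late gene of the ecdysone cascade, stood at 533 ± 2.69 CPM against 299 ± 13.2 in CS SH (log2 0.84 ± 0.16, adjusted p = 0.000273). Hr4 was lower in Or67d GH (log2 -0.78 ± 0.15, adjusted p = 0.00139), and in Or67d SH too (log2 -0.72 ± 0.15, adjusted p = 0.00455). ERR was lower in dsx GH (log2 -0.22 ± 0.07, adjusted p = 0.0273) and svp higher in fru GH (log2 0.27 ± 0.09, adjusted p = 0.0408). Of all genes tested 9.77% were called in Or67d GH, 5.64% in Or67d SH, 21.7% in dsx GH and 17% in fru GH. The list had a median log2 difference of -0.10 in dsx SH, on the other side of 0 from that of the members.

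Of 18 genes grouped here as ecdysone targets, 17 were tested, and 7 were higher and 1 lower in dsx SH. Whether the hormone raises or lowers each of these genes was not checked. The median log2 difference over the 17 was 0.26. The death gene hid stood at 14.4 ± 0.505 CPM against 6.88 ± 0.657 in CS SH (log2 1.15 ± 0.13, adjusted p = 8.19e-07). Eip63F-1, which encodes a calcium-binding protein, was at 157 ± 9.60 against 61.0 ± 21.4 CPM (log2 1.23 ± 0.24, adjusted p = 0.000418). rpr, another death gene, was at 4.26 ± 0.258 against 3.40 ± 0.595 (log2 0.41 ± 0.14, adjusted p = 0.0221). The single lower gene, named after its values were seen, was MsrA, a methionine sulfoxide reductase gene (log2 -0.54 ± 0.13, adjusted p = 0.00263). In dsx GH 3 of the 17 were higher and 0 lower, among them hid (log2 0.65 ± 0.13, adjusted p = 0.000941) and the lactate dehydrogenase gene Ldh (log2 1.09 ± 0.17, adjusted p = 6.35e-05). Ldh was also higher in fru GH (log2 1.11 ± 0.17, adjusted p = 4.23e-05), where 3 were higher, and in fru SH 4 were, with hid (log2 0.54 ± 0.13) and rpr (log2 0.72 ± 0.14) among them. Or47b SH had 2 higher, among them hid and Eip63F-1 (log2 0.46 ± 0.13 and 0.93 ± 0.24), and Or67d GH 1 higher and 1 lower. Over all genes tested 21.7% were called in dsx GH and 17% in fru GH, so 3 of 17 was close to or below that share, and the share was 42.1% in dsx SH, 13.6% in fru SH, 8.43% in Or47b SH and 9.77% in Or67d GH. No gene of this list was called for housing in CS or for the averaged housing effect. Its member Fbp1 is also one of the fat body markers and was not called.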

How the data were processed

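Male brains were dissected, 30 per pool, and stranded libraries of polyadenylated RNA were sequenced as 75 or 100 base paired-end reads, per the labels' protocols. The authors deposited a table of estimated counts, each an expected count per gene, of which 11.9% were not whole numbers. The tools STAR, Salmon and DESeq2 and the build BDGP6 are named, without versions, by the submitters' processing notes. Another table deposited by the authors holds scaled signal values (normalized counts), whose method is not given in the sources used here, and another gives the class AC or notAC.

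Here the estimated counts of 17895 genes were rounded and tested with edgeR 4.0.16 in R 4.3.3. The filter filterByExpr left 11269 genes. Scaling was TMM, and 1 fit of all 30 libraries had a term for each of 10 groups and for the AC class, with 19 residual degrees of freedom. Quasi-likelihood tests gave 18 comparisons, adjusted by Benjamini-Hochberg within each, with calls at 0.05. The steps were tested on simulated data with the same spread for all genes. For dsx SH against CS SH they recovered 24% of 100 genes changed 1.5-fold and 96% of 100 changed 2-fold. Changes of 1.5-fold or less can thus go uncalled. Standard errors and 95% intervals come from the fit. Total counts of 37612941 to 120862312 limit precision by counting error only. The p-values set a difference against the spread between pools, estimated per gene over all 10 groups and not from the compared groups alone. That spread was uneven, with a median SD of the members of 0.04 in the dsx groups and 0.33 in Or67d SH. Fits of the compared groups alone called 17 genes for housing in CS and 4084 for dsx in GH, against 210 and 2449.

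The members, gene lists and settings were chosen with earlier results of these data known. Named genes were all 10 members, up to 4 called genes of each other list by smallest adjusted p, and the 3 genes most like EcR, Eip74EF and Eip75B. Of the gene IDs, 17855 matched the Ensembl annotation of release 115, used for positions, exon lengths and overlaps. All names of the other lists were matched, some through an older symbol. Alternatives were scaling by DESeq2 1.42.0 size factors, its Wald test, no filter, no AC term, notAC libraries alone, a replicate block, covariates, the deposited signal in limma 3.58.1 (log2 scale), a fit of the compared groups alone and each library left out.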

Additional observations from a re-analysis of the deposited data

How the results depend on the processing

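Outside single left-out libraries, 161 of 179 member counts stayed within 1.5 times of the reported value. In most comparisons the reported count was 0, and a count that stayed at 0 was taken as within that bound. An unchanged count of 1 held a different gene under 2 settings: br in place of Hr39 for Or47b in SH with the neuron covariate, and Hr39 in place of Eip78C for Or67d in GH with the deposited normalized values in limma. For Or67d against CS in GH the count of 1 became 2 with notAC libraries alone and 0 with the mitochondrial covariate. The share of all genes called under these settings was 9.71% and 7.37%. For dsx against CS in GH the count of 2 became 1 without the filter, without the AC term and with notAC libraries alone. It was also 1 with either covariate (mitochondrial share or neuron marker sum). A fit of those groups alone gave 5 members, where 39.6% of all genes tested were called, against 21.7% in the main test. For Or47b in SH the count of 1 became 0 without the AC term, with notAC libraries alone, with the mitochondrial covariate and in a fit of those groups alone. For Or67d in SH the count of 0 became 1 (Eip78C) with either covariate, and for fru in GH 1 with the neuron covariate. Of all genes tested 5.7% (mitochondrial) and 5.99% (neuron) were called for Or67d in SH, and 18.8% for fru in GH. For dsx in SH the count of 8 became 1 with the mitochondrial and 2 with the neuron covariate, where Eip93F changed sign to -0.065 (adjusted p = 0.86) and -0.14 (adjusted p = 0.503). Over all genes tested the share called fell from 42.1% to 14.5% and 15.8% with these covariates. The dsx housing difference went from 0 to 1 in a fit of those groups alone, where the share of all genes called went from 0.00887% to 2.64%. The cause was not tested in any of these, and the neuron covariate was chosen after seeing the data. With each library left out, counts were 0 to 2 for Or67d in GH, 1 to 2 for dsx in GH, 0 to 1 for Or47b in SH, 6 to 8 for dsx in SH, 0 to 1 for housing in fru and 0 elsewhere. Same-numbered libraries of both housings did not pair consistently: 6 of 15 pairs had r over 0.1 and 9 of 30 libraries correlated best with their own number. The highest r, 0.52 in fru and 0.43 in Or47b, were those of replicate 3, which is AC in both housings. In CS r was 0.32, -0.22 and -0.16. With the replicate block the counts of called members were 8 for dsx in SH, 2 for dsx in GH, 1 for Or67d in GH and 1 for Or47b in SH, and 0 in the other comparisons, as without it. Scaling by DESeq2 size factors moved the median of all genes by at most 0.04 on the log2 scale.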
